A study of Mus musculus with 8 samples.

Results

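Mesothelial and epithelial marker genes were followed through 4 populations of mouse adult fibroblasts (MAFs) that all expressed p53DD, a dominant-negative fragment of p53, and that differed in RB status and in exposure to cisplatin (CDDP). The markers were Msln, Krt7, Krt8, Krt18, Krt19, Upk3b, Upk1b, Epcam and Cldn1. Every probe set that the array annotation assigned to them was taken, which gave 19 probe sets of 9 genes among 45037 probe sets and 18193 genes. MAFs were isolated from mice whose Rb alleles carried loxP sites (Rb loxP/loxP), infected with adenovirus expressing GFP and Cre recombinase or GFP alone, and then transduced with the p53DD retrovirus, so that Cre cells were RB-deficient and GFP cells RB-proficient. Cre Recurred and GFP Recurred cells had been treated with CDDP for 24 h and had regrown in medium without the drug, whereas Cre Naïve and GFP Naïve cells were untreated. RNA of 2 cell populations of each kind, labelled as biological replicates, was hybridised to Affymetrix GeneChip mouse genome arrays, giving 8 arrays. The infected cells were selected and pooled, and p53 function was blocked in every group. Whether the regrown cultures were clonal, and the age, sex and strain of the mice, were not given in the sources used here.

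Mesothelium is the single layer of flat cells that lines the body cavities. It arises from mesoderm, yet it makes keratin filaments as epithelia do, and cultured fibroblasts normally hold little of either keratin or epithelial junction protein. Msln encodes mesothelin, a cell-surface glycoprotein of mesothelial cells that is also made by several carcinomas. Keratin filaments are built from pairs of an acidic (type I) and a basic (type II) keratin, and the listed keratins are those of simple epithelia, with Krt18 and Krt19 of type I and Krt7 and Krt8 of type II.

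The marker signal differed between populations for only some of the 9 genes. Msln and Krt7 were higher in Cre Recurred cells than in Cre Naïve cells, by 4.39-fold and 1.69-fold, at the study's thresholds of 1.5-fold or more and an adjusted p under 0.25 (limma, Benjamini-Hochberg over all probe sets). Msln, Krt7 and Krt19 were higher in Cre Recurred cells than in GFP Recurred cells at the same thresholds. None of the 19 probe sets passed them in the other direction, in GFP Recurred against GFP Naïve cells, or in Cre Naïve against GFP Naïve cells. Krt8, Krt18, Upk3b, Upk1b, Epcam and Cldn1 passed in no comparison.

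The engineered gene and the arrays were examined first. Rb1 had log2 signals of 4.98 and 5.45 in Cre Recurred cells and 6.21 and 5.72 in Cre Naïve cells, against 8.21 and 8.78 in GFP Recurred cells and 7.98 and 8.07 in GFP Naïve cells, so all 4 Cre arrays lay below all 4 GFP arrays, as labelled. Median signals ran between 5.37 and 5.41 over the 8 arrays. The second Cre Naïve array correlated more closely with the second Cre Recurred array than with its own replicate (r over all probe sets, 0.992 against 0.985), so the differences from Cre Naïve cells are also given with each Cre Naïve array left out where that moved them. The first Cre Naïve array was in turn most like a GFP Naïve array (r = 0.994).

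The cells carried fibroblast RNA throughout. The 10 fibroblast markers had mean log2 signals of 10.73 and 11.73 in Cre Recurred cells, 12.02 and 11.74 in Cre Naïve cells, 11.90 and 12.12 in GFP Recurred cells, and 11.88 and 11.48 in GFP Naïve cells. Vim, which encodes the mesenchymal filament protein vimentin, lay between 13.17 and 13.58 on all 8 arrays. Cdh1, which encodes the defining epithelial adhesion protein E-cadherin, lay between 2.69 and 2.85 on all 8 arrays, and Lrrn4, a mesothelial marker in mice, between 2.71 and 2.99. The median probe set on the array had a mean of 5.40. Lrrn4 does not stand for the mesothelial genes as a set. The 18 mesothelial genes beyond the 9 markers had mean log2 signals between 6.09 and 6.94 over the 8 arrays. Of these 18, 9 had means above the median probe set. These were bulk cultures, in which fewer cells of a type and less RNA per cell cannot be told apart.

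**Figure D1:**
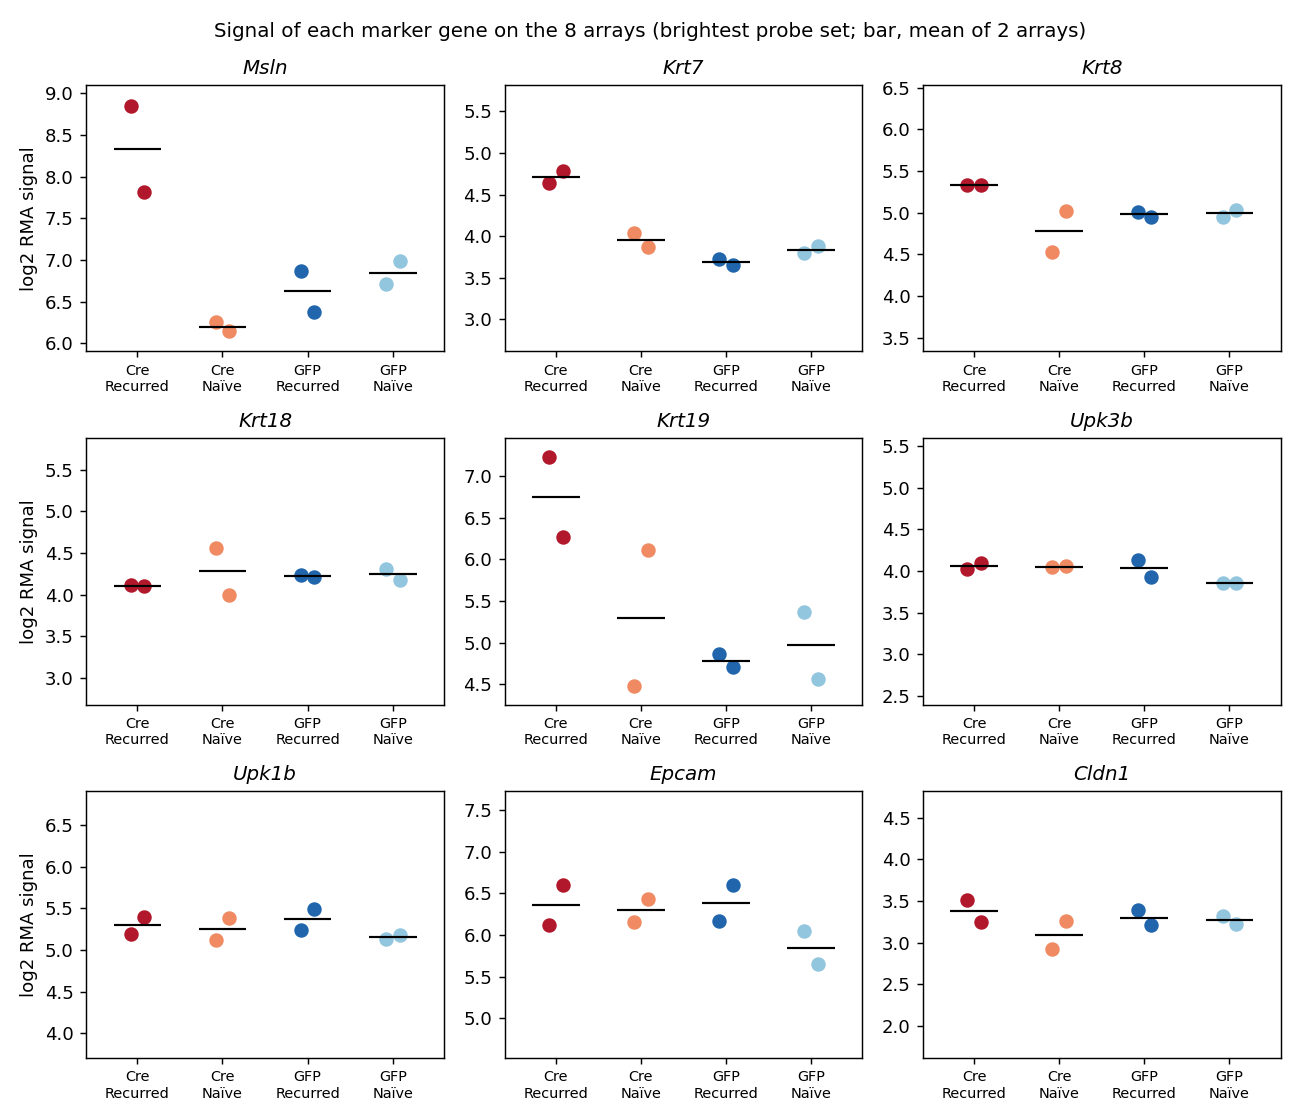
Log2 RMA signal (vertical axes) of the brightest probe set of each of the 9 marker genes on the 8 arrays, by population; points are arrays and bars are means of 2 arrays. The axes differ in position between genes. Both Cre Recurred arrays lie above all 6 others for Msln (8.85 and 7.82), Krt7, Krt8 and Krt19, and the panels of Krt18, the uroplakins, Epcam and Cldn1 show no such separation.

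Msln was measured by 1 probe set (1460238_at). Its log2 signal was 8.85 and 7.82 in Cre Recurred cells, 6.25 and 6.15 in Cre Naïve cells, 6.87 and 6.38 in GFP Recurred cells, and 6.71 and 6.98 in GFP Naïve cells. The Cre Recurred arrays were the highest pair and the Cre Naïve arrays the lowest pair, and the arrays of the GFP populations overlapped each other between them. Group means were 8.34 ± 0.733 in Cre Recurred, 6.20 ± 0.0709 in Cre Naïve, 6.62 ± 0.348 in GFP Recurred and 6.85 ± 0.194 in GFP Naïve cells (SD, n = 2 each). Msln was thus 2.14 ± 0.33 higher on the log2 scale (SE, n = 2 each) in Cre Recurred than in Cre Naïve cells (adjusted p = 0.132, limma).

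Msln was also called higher against both RB-proficient populations. The difference was 1.71 ± 0.33 between Cre Recurred and GFP Recurred cells on the log2 scale (SE, 3.28-fold, adjusted p = 0.0731, limma) and 1.49 between Cre Recurred and GFP Naïve cells (2.81-fold, adjusted p = 0.185). These comparisons share the 2 Cre Recurred arrays and are not independent of each other. GFP Recurred and GFP Naïve cells differed by -0.22 ± 0.33 (SE, adjusted p = 0.94), and Cre Naïve and GFP Naïve cells by -0.65 (adjusted p = 0.997). The recurrence difference in Cre cells exceeded that in GFP cells by 2.36 ± 0.47 on the log2 scale (SE), but this interaction did not pass the threshold (adjusted p = 0.266, limma). The size of the Msln difference rested in part on the first Cre Recurred array, without which it was 1.62 against Cre Naïve cells (adjusted p = 0.52).

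Krt7, a type II keratin of simple ductal epithelia and mesothelium, gave a lower signal and a tighter one (probe set 1423952_a_at). It read 4.64 and 4.78 in Cre Recurred cells, 4.04 and 3.87 in Cre Naïve cells, 3.73 and 3.65 in GFP Recurred cells, and 3.79 and 3.88 in GFP Naïve cells. Both Cre Recurred arrays were above all 6 others, and those 6 overlapped or adjoined each other. The difference was 0.76 ± 0.13 on the log2 scale (SE, n = 2 each) between Cre Recurred and Cre Naïve cells (adjusted p = 0.145, limma), and 0.88 between Cre Recurred and GFP Naïve cells (1.83-fold, adjusted p = 0.0795). Krt7 was 1.02 ± 0.13 higher in Cre Recurred than in GFP Recurred cells (SE, 2.03-fold, adjusted p = 0.0361), the only marker difference with an adjusted p under 0.05. All 8 values of Krt7 lay below the median probe set of the array. GFP Recurred and GFP Naïve cells differed by -0.15 (adjusted p = 0.897), and the interaction was 0.91 ± 0.18 (SE, adjusted p = 0.266).

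Krt19, a small type I keratin found in simple epithelia and mesothelium, had the widest spread between replicates of any of the 9 genes (probe set 1417156_at). Its log2 signal was 7.23 and 6.26 in Cre Recurred cells, 4.48 and 6.11 in Cre Naïve cells, 4.86 and 4.71 in GFP Recurred cells, and 5.37 and 4.56 in GFP Naïve cells. The second Cre Naïve array came close to the lower Cre Recurred array, and the first Cre Naïve array was the lowest of the 8. Krt19 was 1.97 ± 0.56 higher on the log2 scale (SE, 3.91-fold) in Cre Recurred than in GFP Recurred cells (adjusted p = 0.146, limma). The differences of 1.45 ± 0.56 between Cre Recurred and Cre Naïve cells (SE, adjusted p = 0.39) and of 1.78 between Cre Recurred and GFP Naïve cells (adjusted p = 0.273) did not pass. With 1 Cre Naïve array left out, the difference between Cre Recurred and Cre Naïve cells was 2.27 ± 0.46 without the second (SE, adjusted p = 0.131) and 0.64 ± 0.46 without the first (SE, adjusted p = 0.768), so its size depended on which Cre Naïve array was used.

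Krt8, the type II partner of Krt18 in simple epithelia, was measured by 3 probe sets, of which 2 carry a suffix for possible cross-hybridisation. The brightest read 5.34 and 5.34 in Cre Recurred cells, 4.53 and 5.02 in Cre Naïve cells, 5.01 and 4.95 in GFP Recurred cells, and 4.95 and 5.03 in GFP Naïve cells. The Cre Recurred arrays were above all 6 others at each of the 3 probe sets, but by small margins. The difference between Cre Recurred and Cre Naïve cells was 0.56 ± 0.17 on the log2 scale (SE, adjusted p = 0.33, limma), and that between Cre Recurred and GFP Recurred cells was 0.36 (adjusted p = 0.357). The difference from Cre Naïve cells was 0.81 ± 0.14 without the second Cre Naïve array (SE, adjusted p = 0.0959) and 0.32 ± 0.14 without the first (SE, adjusted p = 0.664).

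Krt18, the type I partner of Krt8, showed no such separation. It read 4.11 and 4.10 in Cre Recurred cells, 4.56 and 4.0 in Cre Naïve cells, 4.23 and 4.22 in GFP Recurred cells, and 4.31 and 4.18 in GFP Naïve cells. The Cre Recurred values lay inside the range of the Cre Naïve arrays, and the difference between these populations was -0.17 on the log2 scale. It was -0.46 without the second Cre Naïve array (adjusted p = 0.249, limma, under 1.5-fold) and 0.11 without the first (adjusted p = 0.872).

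The sequences just before the starts of Krt7 and Krt8 are shown because these type II keratin genes lie on the same chromosome and gave differences of unlike call. RefSeq promoter windows (GRCm38.p6) were on hand for 6 of the 9 markers, namely Krt7, Krt8, Krt18, Upk3b, Epcam and Cldn1. The 250 bases before the start are given 5′ to 3′ on the gene's own strand, with capitals marking the E-box CACCTG or its reverse complement CAGGTG, the letters bound by the Snail and Zeb repressors of epithelial genes. The Krt7 window is chr15:101412153-101412402 on the plus strand and the Krt8 window is chr15:102004343-102004592 on the minus strand.
Krt7: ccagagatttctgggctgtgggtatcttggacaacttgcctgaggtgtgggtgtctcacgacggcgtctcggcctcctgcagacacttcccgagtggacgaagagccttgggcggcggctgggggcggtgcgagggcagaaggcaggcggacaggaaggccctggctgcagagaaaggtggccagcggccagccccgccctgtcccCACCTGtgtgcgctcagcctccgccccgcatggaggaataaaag
Krt8: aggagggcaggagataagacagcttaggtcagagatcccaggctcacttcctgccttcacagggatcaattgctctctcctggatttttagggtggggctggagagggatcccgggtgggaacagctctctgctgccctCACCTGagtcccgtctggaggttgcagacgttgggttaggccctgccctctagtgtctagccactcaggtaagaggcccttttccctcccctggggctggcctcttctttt
Each window held 1 match, which began 44 bases before the start in Krt7 and 111 bases before it in Krt8. The Krt7 window held 16 CG dinucleotides and the Krt8 window 3, against a median of 6 over 32851 promoter windows of the same length. Krt18 had 1 match, Epcam 2, and Upk3b and Cldn1 none, and 17.2% of all windows held at least 1. A match describes letters only, and no binding was measured.

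The urothelial plaque proteins and the junction genes gave no difference that passed. Upk3b and Upk1b encode uroplakins, membrane proteins of the bladder lining, and Upk3b is also a marker of mesothelium in mice. The brighter Upk3b probe set read 4.02 and 4.09 in Cre Recurred cells, 4.05 and 4.06 in Cre Naïve cells, 4.14 and 3.92 in GFP Recurred cells, and 3.85 and 3.86 in GFP Naïve cells. The brightest of the 4 Upk1b probe sets read 5.19 and 5.40 in Cre Recurred cells, 5.11 and 5.39 in Cre Naïve cells, 5.24 and 5.50 in GFP Recurred cells, and 5.14 and 5.18 in GFP Naïve cells. For both uroplakins the Cre Recurred and Cre Naïve arrays overlapped.

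Epcam encodes an epithelial cell adhesion molecule. Its brighter probe set read 6.12 and 6.60 in Cre Recurred cells, 6.16 and 6.43 in Cre Naïve cells, 6.17 and 6.60 in GFP Recurred cells, and 6.04 and 5.65 in GFP Naïve cells. The GFP Naïve arrays were the lowest, and the 3 other populations overlapped. The difference of 0.54 between GFP Recurred and GFP Naïve cells did not pass (adjusted p = 0.871, limma). Cldn1, which encodes a strand protein of tight junctions, read between 2.93 and 3.51 over the 8 arrays at the brightest of its 4 probe sets, and all 4 were below the median probe set.

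Over the 6 genes without a call, the 16 probe sets each varied by between 0.282 and 0.953 on the log2 scale across the 8 arrays. Their differences ran from -0.33 to 0.56 between Cre Recurred and Cre Naïve cells (smallest adjusted p = 0.33, limma) and from -0.22 to 0.36 between Cre Recurred and GFP Recurred cells (smallest adjusted p = 0.357), with both Cre Naïve arrays included. Probe sets of 1 gene did not always vary alike. At one Upk1b probe set (1455464_x_at), Cre Naïve cells read 4.70 and 4.89, against 4.28 and 4.17 in GFP Naïve cells, a difference of 0.57 with an unadjusted p of 0.0106 and an adjusted p of 0.997, whereas the other 3 Upk1b probe sets gave smaller or opposite differences.

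**Figure D2:**
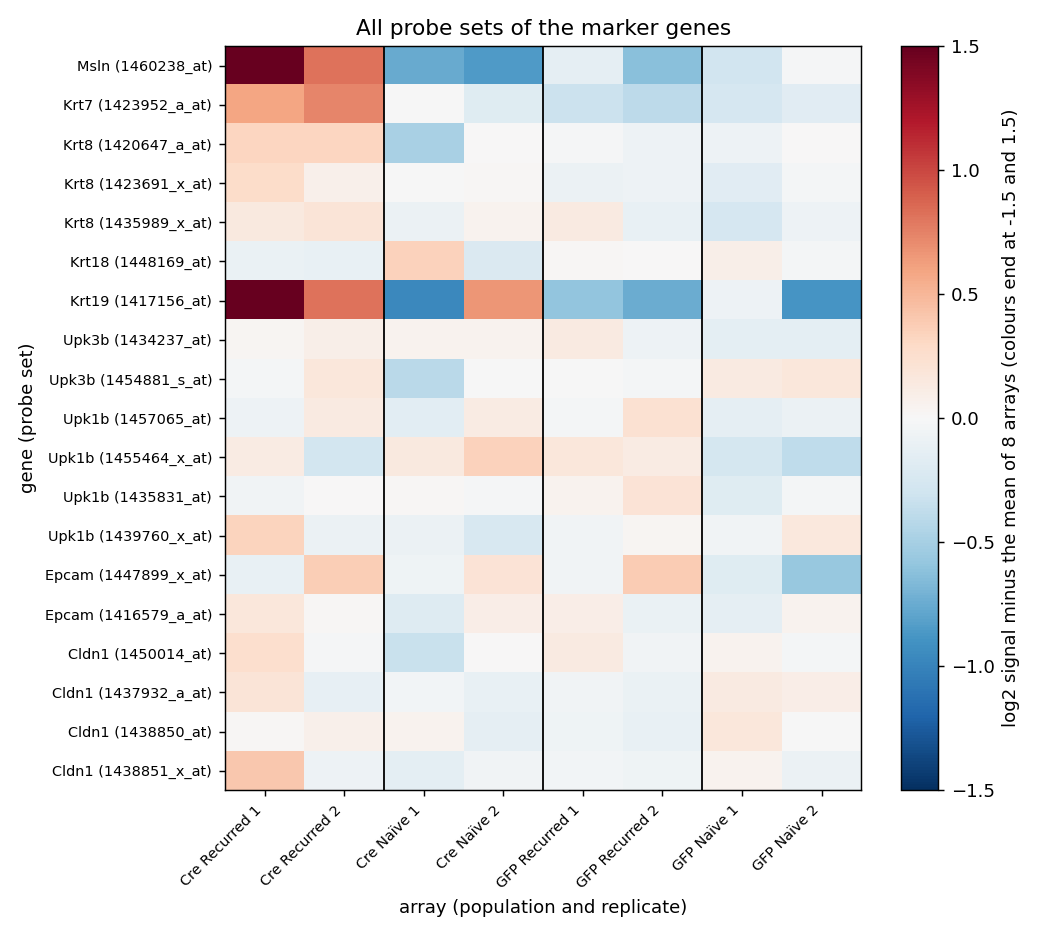
Each row is 1 of the 19 probe sets and each column 1 array, and colour gives the log2 signal minus the probe set's mean over the 8 arrays. Msln, Krt7, the Krt8 probe sets and Krt19 are above their means in the 2 Cre Recurred columns. Krt19 is also above its mean in the second Cre Naïve column (6.11), and so, by small margins, are the 3 Krt8 probe sets (5.02, 4.52 and 4.31). Krt8 probe set 1435989_x_at is above its mean in the first GFP Recurred column (4.39), and 1420647_a_at in the second GFP Naïve column (5.03).

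The markers were chosen with earlier results of these data known, so the counts below do not test them as a set. Counted over probe sets, 2 of the 19 were called higher in Cre Recurred than in Cre Naïve cells, against 0.389% of all 45037 in that direction. In Cre Recurred against GFP Recurred cells, 3 of the 19 were called higher, against 4.08% of all, and 1 of them at an adjusted p under 0.05, against 0.22% of all. In Cre Recurred against GFP Naïve cells, 2 were called higher, against 0.973% of all. In Cre Recurred against Cre Naïve cells, 4 of the 19 reached an unadjusted p under 0.05 in either direction (limma), against 12% of all. The number was 3 against GFP Recurred cells, where 16.8% of all reached it, and 4 against GFP Naïve cells, where 13.3% did. GFP Recurred against GFP Naïve cells gave 0 of 19 by limma, where 0.0133% of all probe sets were called in either direction. An unadjusted p under 0.05 was reached there by 1 of the 19, against 5.52% of all probe sets. Cre Naïve against GFP Naïve cells gave 0 of 19 and 0 of all probe sets by limma, and 1 of the 19 reached an unadjusted p under 0.05, against 2.57% of all. The interaction called 0 of 19, against 0.4% of all probe sets by limma, and 3 of the 19 reached an unadjusted p under 0.05, against 10.3% of all. A SAM-type statistic, modelled on the tool named by the study, called 0 of 19 in Cre Recurred against Cre Naïve cells and 0.153% of all probe sets. In Cre Recurred against GFP Recurred cells it called 3 of 19 and 10.6% of all. In Cre Recurred against GFP Naïve cells it called 1 of 19, Krt7, and 1.24% of all. It called 0 of 19 and 0.591% of all in GFP Recurred against GFP Naïve cells. In Cre Naïve against GFP Naïve cells it called 0 of 19 and 0 of all.

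Both Cre Recurred arrays lay above all 6 others at 6 of the 19 probe sets, those of Msln, Krt7, Krt8 and Krt19, where 11.9% of all probe sets did so. They lay below all 6 others at none of the 19, where 7.37% of all did so. Both GFP Naïve arrays lay below all 6 others at 2 of the 19, the brighter probe sets of Upk3b and Epcam, where 3.72% of all did so, and above all 6 others at none, where 2.39% of all did so. By gene, the median difference between Cre Recurred and Cre Naïve cells was 0.28 on the log2 scale over the 9 markers, 8 of which were above 0, against 0.05 over all 18193 genes, 57.3% of which were above 0. The median over the markers was 0.45 without the second Cre Naïve array, against 0.08 over all genes, and 0.12 without the first, against 0.02 over all genes. Between Cre Recurred and GFP Recurred cells the median was 0.08 over the markers, against 0.04 over all genes. Exact permutation of 2 against 2 arrays cannot give a two-sided p below 0.333, so the adjusted p-values rest on the spread that limma shares between probe sets.

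**Figure D3:**
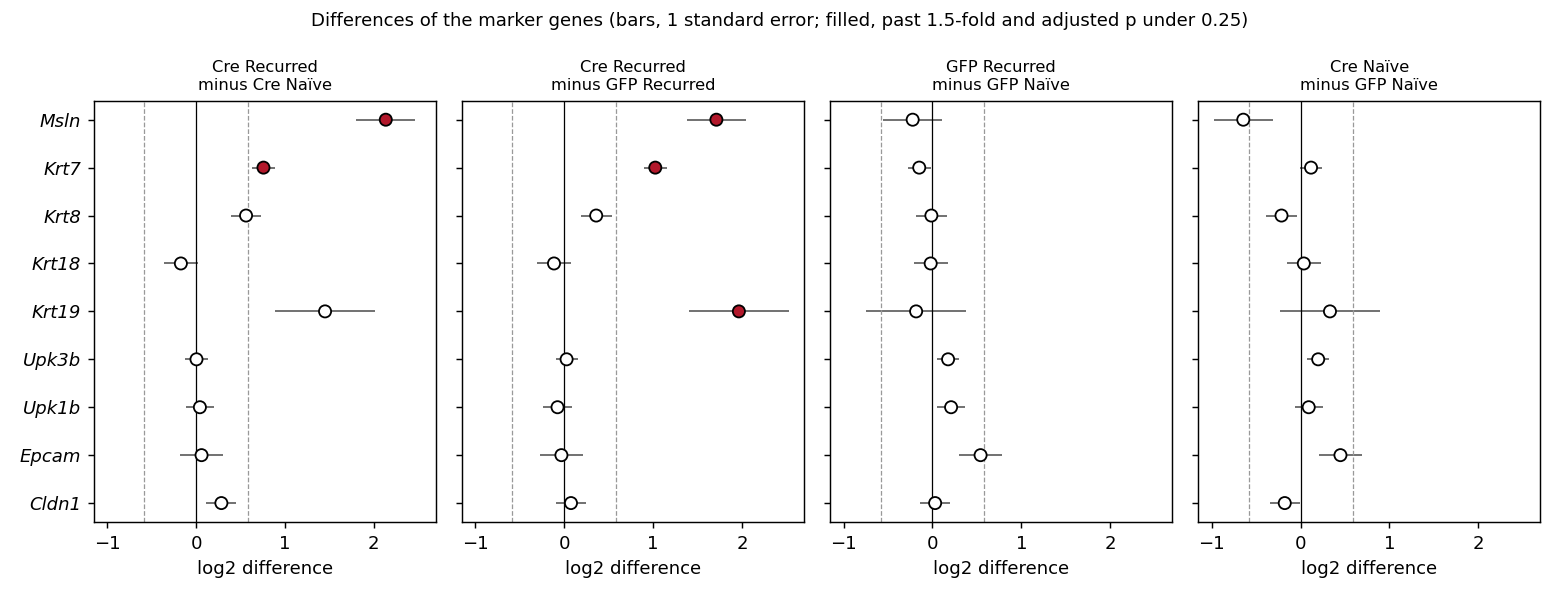
Log2 difference (horizontal axis) of the brightest probe set of each marker gene in 4 comparisons, with bars of 1 standard error; filled points passed 1.5-fold and an adjusted p under 0.25, and dashed lines mark 1.5-fold. Msln and Krt7 are filled for Cre Recurred minus Cre Naïve (2.14 and 0.76), Msln, Krt7 and Krt19 for Cre Recurred minus GFP Recurred (1.71, 1.02 and 1.97), and no point is filled for the other comparisons.

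The calls depended on single arrays, since each population had 2. The difference of Msln between Cre Recurred and Cre Naïve cells ranged between 1.62 and 2.65 on the log2 scale as each array was left out, and the call was lost without the first Cre Recurred, the first Cre Naïve or either GFP Recurred array (adjusted p between 0.289 and 0.52, limma). Krt7 ranged between 0.68 and 0.84 and lost its call without the same arrays (adjusted p between 0.267 and 0.591). The GFP Recurred arrays do not enter these differences, and leaving one out changed only the shared spread and the adjustment. Krt19 against GFP Recurred cells ranged between 1.48 and 2.45 and lost its call without the first Cre Recurred or either GFP Recurred array. Against GFP Recurred cells, Msln lost its call without the same 3 arrays, and Krt7 without the second GFP Recurred array only (adjusted p = 0.335). Against GFP Naïve cells, Msln lost its call without the first Cre Recurred array or any of the 4 GFP arrays (adjusted p between 0.31 and 0.467), and Krt7 without the first Cre Recurred array only (adjusted p = 0.349). Without the second Cre Naïve array, 4 of the 19 probe sets, those of Msln, Krt7, Krt8 and Krt19, were called higher in Cre Recurred than in Cre Naïve cells, where 6.43% of all probe sets were called in either direction. Without the first, 0 of the 19 were called, against 0.46% of all. The interaction called those 4 probe sets without the second Cre Naïve array (adjusted p between 0.186 and 0.22), where it called 3.58% of all, and 2 of the 19 without the second Cre Recurred array, where it called 6.56% of all.

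**Figure D4:**
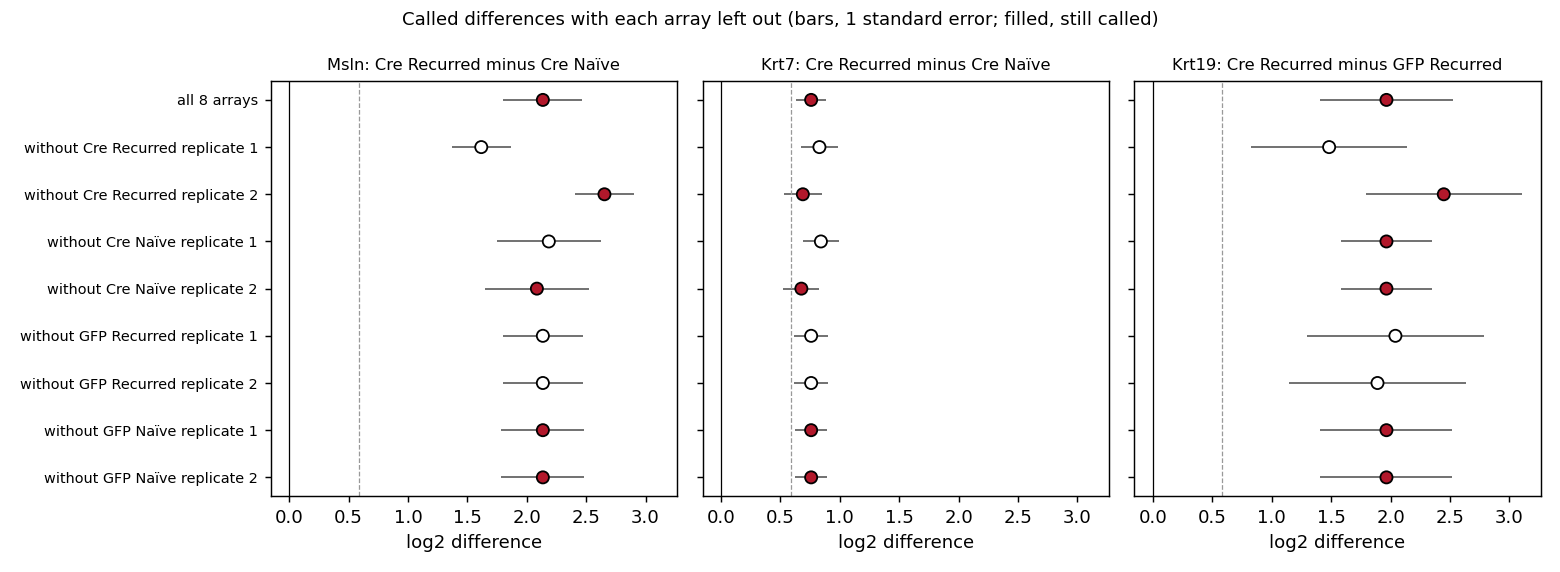
Log2 difference (horizontal axis) of Msln, Krt7 and Krt19 with all 8 arrays and with each array left out in turn; bars are 1 standard error, the dashed line marks 1.5-fold, and filled points passed the study's thresholds. Every point lies above 1.5-fold, with Msln between 1.62 and 2.65, and open points show the arrays without which the adjusted p exceeded 0.25.

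The other genes of the mesothelium gave no common direction. By limma, 0 of 18 mesothelial genes beyond the 9 markers were called between Cre Recurred and Cre Naïve cells. The share of all probe sets called there was 1.16%. Of the 18, 9 had differences above 0, against 57.3% of all genes, and the median was -0.00. Both Cre Recurred arrays were above all 6 others for 2 of the 18, Calb2 and Gpm6a, where 11.9% of all probe sets were. They were below all 6 others for 3 of the 18, Bnc1, Pdpn and Rspo1, where 7.37% of all were. Calb2, which encodes the calcium-binding protein calretinin, read 4.70 and 4.6 in Cre Recurred cells, 3.94 and 4.24 in Cre Naïve cells, 4.30 and 4.36 in GFP Recurred cells, and 4.16 and 4.20 in GFP Naïve cells, and its difference of 0.55 from Cre Naïve cells did not pass (adjusted p = 0.287). The largest differences belonged to Bnc1, Hp and Rspo1, and each had a wide spread within a population. Bnc1, a zinc finger factor of mesothelium and basal keratinocytes, read 2.76 and 2.96 in Cre Recurred cells, 7.76 and 3.94 in Cre Naïve cells, 7.93 and 7.89 in GFP Recurred cells, and 7.74 and 8.66 in GFP Naïve cells. It was lower by 5.05 on the log2 scale in Cre Recurred than in GFP Recurred cells (adjusted p = 0.0825), while the difference of -2.99 from Cre Naïve cells did not pass (adjusted p = 0.367). Hp differed by -2.10 (adjusted p = 0.667) and Rspo1 by -1.72 (adjusted p = 0.513) between Cre Recurred and Cre Naïve cells. Without the second Cre Naïve array, Calb2 was called higher and Bnc1 (-4.90) and Rspo1 (-3.25) lower, and without the first none of the 18 was called.

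Against GFP Recurred cells, 2 of these 18 genes were called higher in Cre Recurred cells and 3 lower, where 4.08% of all probe sets were called higher and 4.78% lower. The higher ones were Thbd, an anticoagulant surface receptor, at 0.79 (adjusted p = 0.173), and Efemp1, an extracellular matrix fibulin, at 4.52 (adjusted p = 0.0982). Efemp1 read 10.69 and 10.86 in Cre Recurred cells and 6.37 and 6.15 in GFP Recurred cells, but 9.67 and 10.69 in Cre Naïve cells and 11.59 and 7.84 in GFP Naïve cells. The lower ones were Bnc1, Pdpn (-0.82, adjusted p = 0.164) and Cav1 (-0.72, adjusted p = 0.243). Members of the mesothelial list therefore differed from GFP Recurred cells in both directions. Against GFP Naïve cells, 0 of the 18 were called higher and 1 lower. Of all probe sets, 0.973% were called higher there and 2.07% lower.

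**Figure D5:**
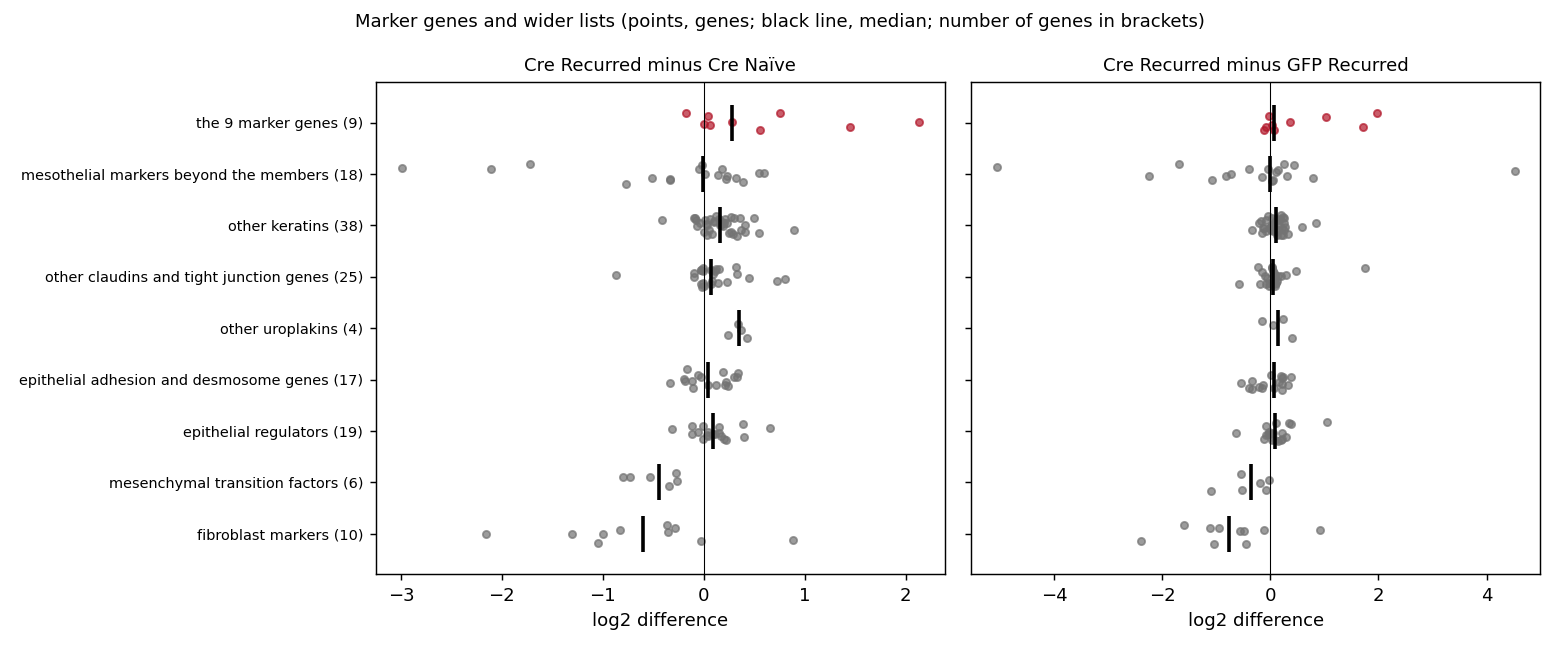
Log2 difference (horizontal axis) of each gene in the 9 markers and in 8 wider lists, for Cre Recurred minus Cre Naïve and Cre Recurred minus GFP Recurred; points are genes and black lines are medians. The medians of the keratin, tight junction, adhesion and regulator lists lie between 0.04 and 0.17 in the panel for Cre Naïve cells, those of the mesenchymal transition factors (-0.44) and fibroblast markers (-0.60) lie below 0 there, and the mesothelial genes spread to both sides.

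Of 40 other keratins, 38 were measured, and 0 were called between Cre Recurred and Cre Naïve cells by limma. The share of all probe sets called there was 1.16%. The keratins had a median difference of 0.17, against 0.05 over all genes. Of the 38, 32 were above 0, against 57.3% of all genes. Krt80, a keratin of many epithelia, was the most different, with signals of 8.21 and 7.49 in Cre Recurred cells, 6.83 and 7.07 in Cre Naïve cells, 7.15 and 6.86 in GFP Recurred cells, and 7.26 and 7.02 in GFP Naïve cells. Both Cre Recurred arrays were above the rest, yet the difference of 0.90 from Cre Naïve cells did not pass (adjusted p = 0.31). Krt33b (0.55) and Krt78 (0.5) followed it. Without the second Cre Naïve array, the median over the keratins was 0.23, against 0.08 over all genes. Krt80 then differed by 1.02, Krt33b by 0.85, Krt15 by 0.68 and Krt78 by 0.59. Without the first, the median was 0.06, against 0.02 over all genes. Krt80 then differed by 0.78, Krt33b by 0.25, Krt15 by 0.14 and Krt78 by 0.40. Against GFP Recurred cells, 2 of the 38 were called higher, Krt80 (0.85, adjusted p = 0.156) and Krt13 (0.59, adjusted p = 0.168). Of all probe sets, 4.08% were called higher there. None of the 38 was called lower, where 4.78% of all probe sets were.

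Of 25 claudins and other tight junction genes beyond Cldn1, 0 were called between Cre Recurred and Cre Naïve cells, with a median of 0.07. The share of all probe sets called there was 1.16%. Cldn11 (-0.87), F11r (0.80) and Cgn (0.72) differed most there. F11r, which encodes the junctional adhesion molecule JAM-A, was called higher in Cre Recurred than in GFP Recurred cells, by 1.75 ± 0.31 on the log2 scale (SE, adjusted p = 0.0627, limma), which is 1 of the 25 where 4.08% of all probe sets were called higher. It read 8.94 and 9.04 in Cre Recurred cells, against 7.23 and 7.26 in GFP Recurred cells, with 7.75 and 8.63 in Cre Naïve cells and 8.57 and 7.90 in GFP Naïve cells. Without the second Cre Naïve array, F11r (1.24) was called higher and Cldn11 (-1.82) lower than in Cre Naïve cells, and without the first none of the 25 was called and Cldn11 differed by 0.09. Cldn15 was lower by 0.67 in Cre Recurred than in GFP Naïve cells (adjusted p = 0.159). This was 1 of the 25, where 2.07% of all probe sets were called lower.

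The 4 other uroplakins gave 0 calls and a median difference of 0.35 between Cre Recurred and Cre Naïve cells. The 17 measured genes of epithelial adhesion and desmosomes, of 20 listed, also gave 0 calls there, with a median of 0.04, and Pkp3 (0.34), Perp (-0.33) and Dsc3 (0.33) differed most. Neither list gave a call between Cre Recurred and GFP Recurred cells. Of all probe sets, 1.16% were called against Cre Naïve cells and 8.85% against GFP Recurred cells. The uroplakin Upk2 differed from Cre Naïve cells by 0.60 on the log2 scale without the second Cre Naïve array. Without the first it differed by -0.12, so the direction depended on which Cre Naïve array was used.

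Among 19 regulators of epithelial genes, 1, Elf3, was called higher in Cre Recurred than in Cre Naïve cells. Of all probe sets, 0.389% were called higher there. Elf3, an ETS factor of epithelia, read 5.59 and 5.46 in Cre Recurred cells, 4.92 and 4.82 in Cre Naïve cells, 5.16 and 5.12 in GFP Recurred cells, and 4.99 and 4.96 in GFP Naïve cells. Both Cre Recurred arrays were the highest, and the difference from Cre Naïve cells was 0.66 on the log2 scale (adjusted p = 0.171, limma). It kept its call without the second Cre Naïve array (0.61, adjusted p = 0.175) but not without the first (0.71, adjusted p = 0.367). Klf5, a Krüppel-like factor of epithelial progenitors, was called higher in Cre Recurred than in GFP Recurred cells (1.06, adjusted p = 0.115) but not against Cre Naïve cells (0.39, adjusted p = 0.572). Of the 19, it was the only 1 called against GFP Recurred cells, where 4.08% of all probe sets were called higher. Ap1m2, which encodes an epithelial sorting adaptor subunit, had a difference of 0.40 from Cre Naïve cells (adjusted p = 0.415).

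The 6 mesenchymal transition factors, which repress epithelial genes or drive mesenchymal ones, all had differences below 0 between Cre Recurred and Cre Naïve cells. Their median was -0.44, against 0.05 over all genes, 57.3% of which were above 0. Without the second Cre Naïve array, 1 of the 6 was above 0 (median -0.32), and without the first 0 were (median -0.50). The mean log2 signal of the 6 was 9.14 and 9.72 in Cre Recurred cells and 9.84 and 9.99 in Cre Naïve cells. It was 9.71 and 9.96 in GFP Recurred cells and 9.87 and 10.02 in GFP Naïve cells. Both Cre Recurred arrays were below all 6 others for 1 of these genes, Twist2, where 7.37% of all probe sets were. By limma, 0 of the 6 were called, against 1.16% of all probe sets. Twist2 differed by -0.80 (adjusted p = 0.378), Zeb2 by -0.73 and Twist1 by -0.54. Against GFP Naïve cells, 1 of the 6 was called lower, where 2.07% of all probe sets were. Twist2 read 10.57 and 10.73 in Cre Recurred cells, against 11.79 and 11.71 in GFP Recurred cells, and this difference of -1.10 was called (adjusted p = 0.128). Twist2 was the only 1 of the 6 called there, where 4.78% of all probe sets were called lower. From Cre Naïve cells it differed by -1.28 without the second Cre Naïve array, which was called (adjusted p = 0.0529), and by -0.31 without the first (adjusted p = 0.724).

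Most fibroblast markers had lower means in Cre Recurred than in Cre Naïve cells, without passing the test. Of the 10, 9 had differences below 0 between Cre Recurred and Cre Naïve cells, with a median of -0.60 and 0 calls by limma. Over all genes the median was 0.05 and 57.3% were above 0, and 1.16% of all probe sets were called. Both Cre Recurred arrays were below all 6 others for 3 of the 10, Dcn, Fap and S100a4, where 7.37% of all probe sets were. They were above all 6 others for 1, Thy1, where 11.9% of all were. The marker mean of the second Cre Recurred array (11.73) was near that of the second Cre Naïve array (11.74). It was above that of the second GFP Naïve array (11.48). Fap differed by -2.16 (adjusted p = 0.341), Dcn by -1.31 and Pdgfrb by -1.05. Fap differed by -3.00 without the second Cre Naïve array and by -1.31 without the first. Between Cre Recurred and GFP Recurred cells, Fap (-2.39) and Dcn (-1.60) were called lower and Thy1 (0.91) higher. Of all probe sets, 4.78% were called lower there and 4.08% higher. Against GFP Naïve cells, 1 of the 10 was called higher and 0 lower, where 0.973% of all were called higher and 2.07% lower. The first Cre Recurred array, which gave the highest Msln and Krt19 signals, also gave the lowest mean of the fibroblast markers (10.73), and the part of this in the Msln and Krt19 differences was not tested.

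Markers of other cells gave 0 calls by limma between Cre Recurred and Cre Naïve cells, where 1.16% of all probe sets were called. The endothelial gene Pecam1 was 0.46 higher in Cre Recurred than in Cre Naïve cells on the log2 scale. It stayed higher with either Cre Naïve array left out, by 0.24 without the first. Mean log2 signals of 4 endothelial markers were 4.43 and 4.38 in Cre Recurred cells, against 4.19 and 4.28 in Cre Naïve cells. Those of 4 leukocyte markers were 5.89 and 5.87 in Cre Recurred cells, against 6.31 and 6.09 in Cre Naïve cells. Those of 2 adipocyte markers, of 3 listed, were 2.91 and 2.75 in Cre Recurred cells, against 2.81 and 2.96 in Cre Naïve cells. Those of 4 smooth muscle markers were 10.24 and 10.32 in Cre Recurred cells, against 10.39 and 10.24 in Cre Naïve cells.

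The genes whose signal over the 8 arrays was most like that of Msln were Sema3a (Pearson r = 0.983), Stap2 (0.979), Prss2 (0.973), Gchfr (0.971) and Il34 (0.965), among probe sets with 1 symbol and an SD over the arrays of at least 0.5. These correlations are descriptions over 8 arrays that share 4 populations. Sema3a, a secreted guidance cue, read 5.03 and 4.47 in Cre Recurred cells, 3.53 and 3.54 in Cre Naïve cells, 3.83 and 3.50 in GFP Recurred cells, and 3.77 and 4.18 in GFP Naïve cells. Like Msln, it was highest in the first Cre Recurred array. The r with Msln was 0.813 for Krt7, 0.785 for the brightest Krt8 probe set, 0.739 for Krt19 and 0.644 for Cldn1. It was 0.154 for Upk3b, -0.09 for Epcam, -0.14 for Upk1b and -0.35 for Krt18.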

How the data were processed

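RNA of 8 cultures was measured on Affymetrix GeneChip mouse genome arrays, 2 for each of 4 groups taken from the sample titles. The authors deposited log2 signals made by RMA (version not given in the sources used here), which subtracts background, gives all arrays 1 distribution and combines the probes that make up a probe set. Such signals hold no molecule counts, and the number of arrays limits the precision. Nothing was renormalised. Genes were assigned by the platform annotation, where 34945 probe sets had 1 symbol, 932 several and 9160 none. After 64 controls were left out of 45101 probe sets, limma 3.58.1 (R 4.3.3) was fitted to 45037 with 1 mean per group (4 residual degrees of freedom), and p-values were adjusted by Benjamini-Hochberg over all of them. Calls used 1.5-fold and an adjusted p under 0.25, as the study did with SAM, and 0.05 as a stricter threshold. The markers and lists were chosen with earlier results of these data known. The brightest probe set represented a gene. Named genes of each wider list were those called between Cre Recurred and Cre Naïve cells, otherwise the 3 of largest difference there. Genes called in other comparisons were named after their values were seen. Alternatives were a trended robust prior, a SAM-type statistic, cyclic loess, median centring, only the arrays compared, a replicate block, probe sets above the median signal, probe sets without a suffix for shared probes, and each array left out. Replicates were labelled biological, and p-values measure the spread between these cultures.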

Additional observations from a re-analysis of the deposited data

How the results depend on the processing

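The 7 called marker differences had 106 values under 16 alternatives, of which 64 equalled the value with all arrays, since there only the error or the adjustment changed. The other 42 kept their direction. Of the 106, 79 stayed past the thresholds and 27 lost the call. The count of probe sets called between Cre Recurred and Cre Naïve cells, 2 with all arrays, was 1 among probe sets above the median signal and 1 among those without a suffix, neither of which includes Krt7, and 0 with only the arrays compared and 0 by the SAM-type statistic. The count for Cre Recurred against GFP Naïve cells, also 2, was 1 without suffixed probe sets, 1 with only the arrays compared and 1 by the SAM-type statistic. The interaction, which had 0 calls, had 2 under the trended robust prior (Msln and Krt7, adjusted p = 0.237 each, limma) and 1 among probe sets above the median signal. The causes were not tested. As each array was left out, the counts ranged between 0 and 4 for Cre Recurred against Cre Naïve, 0 and 3 for Cre Recurred against GFP Recurred, 0 and 3 for Cre Recurred against GFP Naïve and 0 and 4 for the interaction. With replicate number as a block the counts were 2, 3 and 2 for Cre Recurred against Cre Naïve, GFP Recurred and GFP Naïve cells, and 0 in the other comparisons, so the block changed no count. The deviations of same-numbered replicates gave 6 correlations of both signs, between -0.25 and 0.31, so a pairing of the cultures by number was not established. The SAM-type statistic and the arrays compared were not run for the interaction. With 2 arrays a group, a marker needed a large difference or a tight spread to pass, and 16 of the 19 probe sets lay below the median signal.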
